A study of Mus musculus with 33 samples.

Results

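Goblet cells are the mucus-secreting cells of the colonic epithelium. Their granules carry the gel-forming mucin MUC2 together with partners that fold it, link it or accompany it into the lumen, and their fate is set by the transcription factor ATOH1 where Notch signalling is low, with SPDEF, FOXA and CREB3-like factors acting in their maturation. The 10 goblet cell genes Muc2, Tff3, Spink4, Fcgbp, Agr2, Zg16, Spdef, Atoh1, Creb3l1 and Foxa3 were followed here. They were taken by symbol from the 32285 gene identifiers of each count table, and each of the 10 was found as 1 protein-coding gene.

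RNA-seq was available for 33 libraries of mouse colon organoids. The non-induced control, organoid AKP and in vivo AKP had 6 libraries apiece, and 5 mini-colon AKP lines, numbered #i to #v, had 3 apiece. AKP lines carry recombined inducible alleles, among them Apc fl/fl and Trp53 fl/fl, which the control cells also carry in their non-recombined form. In organoid AKP they were recombined by a doxycycline- and blue-light-dependent Cre (OptoCre) in organoids that were then passaged in parallel with the mini-colons, which are colon epithelia grown as a tube in a microfluidic hydrogel. The mini-colon AKP lines were set up from cells of mini-colon tumours, with #v named as coming from crypt-enriched and #i from lumen-enriched tumours. In vivo AKP are organoids from colon tumours of mice with a Cdx2-creERT2 transgene, which acts in the caudal gut epithelium, that were 8 to 10 weeks old when they received a single injection of 18 mg per kg tamoxifen and that carried the tumours for 6 weeks. All organoids were cultured for 3 days and then starved for 24 hours in basal medium without added growth factors before RNA was isolated, so every level below is that of starved organoids. The study expanded tumour organoids in a medium lacking WNT3A, R-spondin, noggin and EGF. Which medium each line had before starvation is not stated, so line and earlier medium cannot be told apart in comparisons with control. The labels tie no library to a mouse, tumour or separately derived line, so p-values here measure library-to-library spread alone, and that spread may be technical.

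The libraries held between 2438672 and 8256526 counts each, and the median library 3748649. The 7 epithelial markers summed to between 9589 and 10990 CPM (counts scaled to a fixed library size) in the control libraries. In the libraries of the AKP lines they summed to between 3114 and 3804 CPM. The 8 immune markers summed to between 3.41 and 17.9 CPM over all libraries. The T-cell marker Cd3e was at 0 in 6 of the 8 lines. Each library carries a code letter in its file name, E or F, whose meaning is not given in the sources used here. Control, organoid AKP and in vivo AKP each have 3 libraries of E and 3 of F, the lines #i, #ii and #iii have only E, and #iv and #v have only F. Within organoid AKP the goblet cell genes differed strongly between these letters, so each comparison is given over all libraries and within a letter. Levels are given in CPM after scaling of the library sizes by the trimmed mean of M values (TMM), as mean ± SD over the libraries of a line. In these bulk samples fewer goblet-like cells and less RNA per cell cannot be told apart.

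The genes fall into secreted products, a folding enzyme and transcription factors. Muc2 (chr7:141276583-141308430 on GRCm39, plus strand) encodes the gel-forming mucin of the colon, and Fcgbp (chr7:27770661-27820287, plus strand) a large mucus protein that is bound into the MUC2 gel. Tff3 (chr17:31344280-31348620, minus strand) encodes the intestinal trefoil factor, a small peptide of epithelial repair. Zg16 (chr7:126649302-126686500, minus strand) encodes a lectin that binds Gram-positive bacteria in mucus. Spink4 (chr4:40920044-40931396, plus strand) encodes a secreted protein of the Kazal-type protease inhibitor family. Agr2 (chr12:36042904-36054086, plus strand) encodes a protein disulfide isomerase of the endoplasmic reticulum that is needed for MUC2 to be made. Atoh1 (chr6:64706109-64708229, plus strand) encodes the basic helix-loop-helix factor of the secretory lineage, Spdef (chr17:27933326-27947929, minus strand) an ETS factor of goblet cell maturation, Creb3l1 (chr2:91812673-91854917, minus strand) a membrane-bound factor released from the Golgi that drives secretory cargo genes, and Foxa3 (chr7:18747209-18757471, minus strand) a forkhead factor. Zg16 overlaps the long non-coding gene Gm44939 on the other strand, and the strand setting of the counting is not given in the sources used here, but only 4 tags were counted for Gm44939 in all libraries together.

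Promoter sequence in the RefSeq-derived table, which is built on GRCm38.p6, was present for 6 of the 10 genes. The 250 bases before the start in that table are shown for 4 of these on which the results turn, Foxa3, which rose in organoid AKP, Fcgbp and Muc2, which fell, and Agr2, whose direction differed between libraries. For Agr2 and Foxa3 this start lies inside the gene position given above, so their windows reach into it. Each window matched GRCm39 at exactly 1 place, at chr7:18757465-18757714 on the minus strand for Foxa3, chr12:36042674-36042923 on the plus strand for Agr2, chr7:27770411-27770660 on the plus strand for Fcgbp and chr7:141276333-141276582 on the plus strand for Muc2. The sequences run 5′ to 3′ on the gene's strand, and capitals mark the searched motifs.
Foxa3: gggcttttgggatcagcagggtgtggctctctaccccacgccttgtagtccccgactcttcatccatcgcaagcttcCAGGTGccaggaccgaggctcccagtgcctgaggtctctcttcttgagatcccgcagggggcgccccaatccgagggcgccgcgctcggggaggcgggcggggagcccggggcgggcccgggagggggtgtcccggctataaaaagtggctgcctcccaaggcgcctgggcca
Agr2: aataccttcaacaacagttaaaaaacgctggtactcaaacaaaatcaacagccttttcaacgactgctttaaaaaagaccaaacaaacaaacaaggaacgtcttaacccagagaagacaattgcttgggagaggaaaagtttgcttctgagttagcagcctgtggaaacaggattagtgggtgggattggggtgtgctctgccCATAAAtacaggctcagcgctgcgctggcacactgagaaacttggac
Fcgbp: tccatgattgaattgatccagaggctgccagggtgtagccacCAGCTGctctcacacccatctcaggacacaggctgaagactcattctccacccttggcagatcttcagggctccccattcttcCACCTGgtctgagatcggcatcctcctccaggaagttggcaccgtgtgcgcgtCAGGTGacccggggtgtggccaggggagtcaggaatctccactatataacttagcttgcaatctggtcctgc
Muc2: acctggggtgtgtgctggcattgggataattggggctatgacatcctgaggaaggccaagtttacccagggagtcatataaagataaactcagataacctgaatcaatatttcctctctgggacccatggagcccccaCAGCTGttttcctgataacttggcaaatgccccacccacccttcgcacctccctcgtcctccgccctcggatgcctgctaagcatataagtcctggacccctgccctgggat
Both strands were searched for the E-box letters CAGNTG, which include CAGCTG, the forkhead letters TGTTTAC and TATTTAC, the CREB-type letters TGACGTG and, for CDX-type factors, TTTATG. The E-box letters stood in the windows of Foxa3, Fcgbp and Muc2, with 3 matches in Fcgbp, and in 44.8% of the 32851 windows of the table. The stricter form CAGCTG stood in Fcgbp and Muc2 and in 13.0% of all windows. Agr2 held a match to TTTATG on the other strand, as 10.8% of all windows hold at least 1. None of the 4 held TGTTTAC (3.17% of all windows), TATTTAC (2.73%) or TGACGTG (1.65%). These matches are letters in a window and no measurement of binding.

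**Figure D1:**
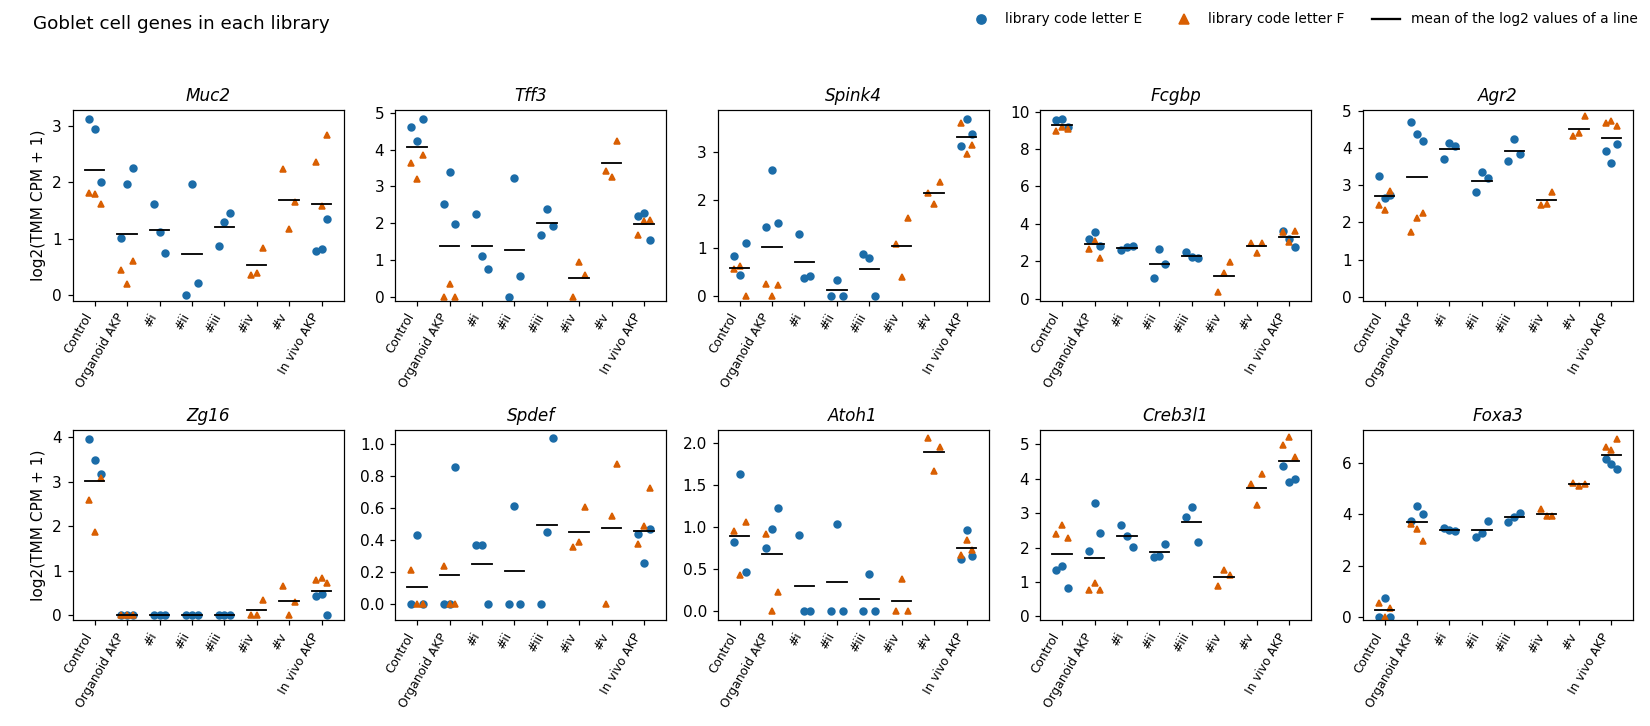
Level of each of the 10 goblet cell genes in each of the 33 libraries, as log2 of TMM-scaled CPM plus 1 on the y axis, by line on the x axis, with circles for libraries of letter E, triangles for letter F and a bar at the mean of the log2 values of each line. Fcgbp and Zg16 stand highest in control, Foxa3 and Creb3l1 highest in in vivo AKP, and in organoid AKP the 3 triangles of Agr2 lie below the 3 circles.

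Organoid AKP held far less Fcgbp, Zg16 and Tff3 than control and far more Foxa3. The fall of Muc2 was less firm, and Agr2 and Spink4 did not fall over all libraries. Fcgbp fell from 625.9 ± 116 CPM in control to 6.86 ± 2.53 CPM in organoid AKP (n = 6 each), Zg16 and Tff3 fell with it, and Foxa3 rose from 0.24 ± 0.296 to 12.5 ± 4.32 CPM. Of the 9 genes that could be tested, 4 fell and 2 rose in organoid AKP against control by edgeR's quasi-likelihood test at an adjusted p under 0.05. Over all 13606 genes tested 33.6% fell and 37.3% rose in this comparison, so a call was common and the size of a change tells more than the count. Spdef, with 40 tags in all 33 libraries, did not pass the filter of at least 1 CPM in at least 3 libraries and was not tested in any comparison.

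Fcgbp ranged from 506.5 to 778 CPM in control with a median of 587.8 CPM, and from 3.45 to 10.7 CPM in organoid AKP with a median of 6.74 CPM. The groups stood far apart, by a log2 fold change of -6.56 ± 0.23 (SE, adjusted p = 5.3e-22). The value was -6.47 within letter E and -6.66 within letter F. Zg16 lay between 2.64 and 14.6 CPM in control, with a median of 7.67 CPM. No tag of it was counted in any of the 6 organoid AKP libraries, against 189 tags in control. With 3 counts over the 6 libraries taken as the floor, the level in organoid AKP was at least 64.9-fold lower (adjusted p = 4.1e-09).

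Tff3 was found at 8.28 to 27.3 CPM in control with a median of 15.7 CPM, and at 0 to 9.42 CPM in organoid AKP with a median of 1.62 CPM. A single organoid AKP library, replicate 2, reached into the range of control, and the fall was -2.83 ± 0.66 on the log2 scale (adjusted p = 0.0004). It was -2.05 within letter E and -6.48 within letter F, where the organoid AKP libraries held 0, 2 and 0 tags. Muc2 ran from 2.05 to 7.67 CPM in control with a median of 2.77 CPM, and from 0.14 to 3.77 CPM in organoid AKP with a median of 0.769 CPM. The ranges of Muc2 overlapped, and its fall of -1.57 ± 0.63 (adjusted p = 0.027) held within letter F (-2.82, adjusted p = 3.7e-05) but not within letter E (-1.15, adjusted p = 0.062). The call on Muc2 was also lost without any 1 of control replicates 1 and 2 and organoid AKP replicates 4, 5 and 6, with adjusted p up to 0.076.

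Foxa3 was all but absent from control, with 7 tags over the 6 libraries, no tag in 3 of them and at most 0.7 CPM. In organoid AKP it ran from 6.9 to 19.2 CPM with a median of 11.7 CPM, above all control libraries. The rise was 5.42 ± 0.40 on the log2 scale (adjusted p = 7.2e-14), and 5.78 within E and 5.0 within F.

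Agr2 and Creb3l1 moved in opposite directions under the letters. Agr2 lay between 4.05 and 8.43 CPM in control with a median of 5.46 CPM. In organoid AKP it was at 24.8, 19.8 and 17.2 CPM in the libraries of letter E and at 2.31, 3.36 and 3.80 CPM in those of letter F. Its pooled change of 0.97 ± 0.42 (adjusted p = 0.042) joined a rise of 1.64 within E (adjusted p = 3.1e-07) to a fall of -0.71 within F (adjusted p = 0.015). The pooled call was lost with RLE size factors, with no filter on low counts, with limma-voom (0.21), with the replicate block (0.80), with the letter as a term and with the 2 lines alone, at adjusted p from 0.06 to 0.67. Without any 1 of control replicates 2 to 6 or organoid AKP replicates 1 to 3 it was lost too, with changes between 0.53 and 1.21 over all the libraries left out in turn.

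Creb3l1 was at 1.53, 1.75 and 0.757 CPM in the control libraries of letter E and at 4.22, 5.29 and 3.83 CPM in those of letter F. In organoid AKP the order of the letters turned round, with 2.72, 8.77 and 4.31 CPM in E and 0.712, 0.979 and 0.69 CPM in F. Over all libraries the change was -0.35 ± 0.48 (adjusted p = 0.52), against 1.90 within E (adjusted p = 0.00084) and -2.47 within F (adjusted p = 4.4e-07). Without organoid AKP replicate 2 alone the pooled fall was called (-1.07, adjusted p = 0.032). Spink4 rose within E by 1.89 (adjusted p = 0.012), where its levels in CPM went from 0.767, 0.35 and 1.14 in control to 1.70, 5.20 and 1.89 in organoid AKP. Within F the log2 fold change of Spink4 was -1.40 (adjusted p = 0.25), and over both letters it was called without organoid AKP replicate 5 alone (1.72, adjusted p = 0.028). Atoh1 was at 0.939 ± 0.642 CPM in control and 0.678 ± 0.509 CPM in organoid AKP, and passed the test neither over all libraries (adjusted p = 0.4) nor within a letter. Within letter E alone 7 of the 9 genes tested were called in either direction and within letter F alone also 7, where 67.7% and 72.5% of all genes were called.

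Colonocyte markers moved alongside. The 14 of them summed to between 10490 and 13250 CPM in the control libraries and to between 263 and 418 CPM in organoid AKP, where Car4 and Ceacam20 were at 0. The 7 epithelial markers summed to between 9589 and 10990 CPM in control and to between 3284 and 3804 CPM in organoid AKP. The 5 cycling markers summed to between 281 and 384 CPM in control and to between 2469 and 2940 CPM in organoid AKP. The part of these differences in the levels of the goblet cell genes was not tested.

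**Figure D2:**
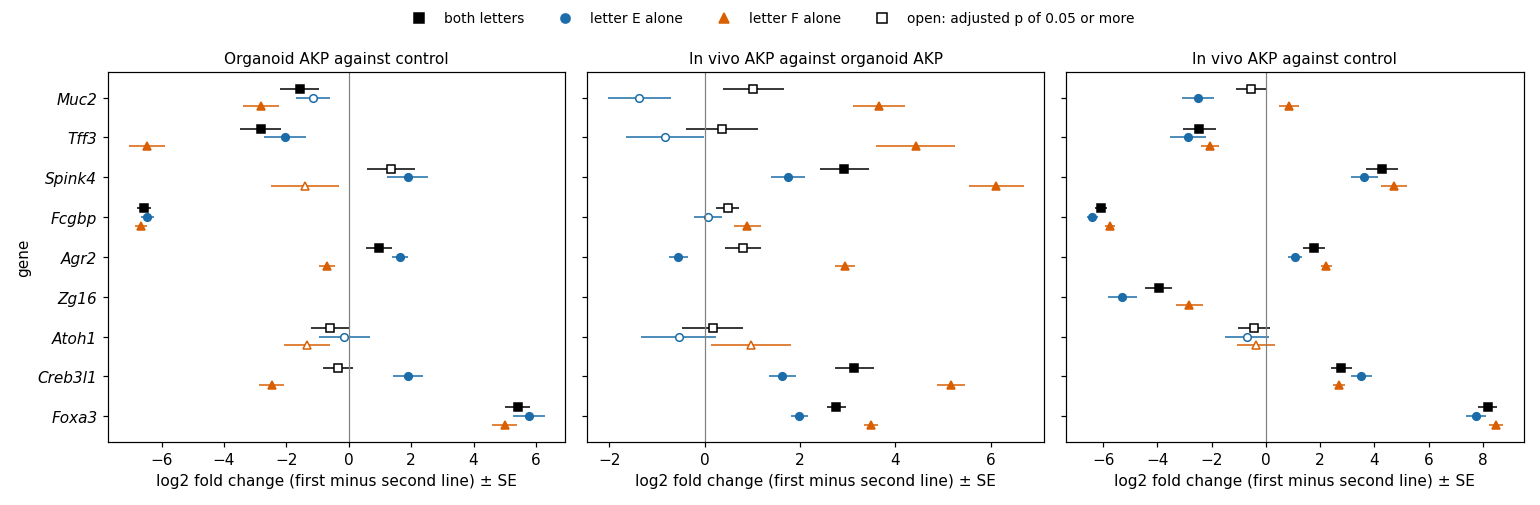
Log2 fold change (x axis, bars show ± SE) of the 9 tested goblet cell genes (y axis) in 3 comparisons of lines, over both letters (squares), in letter E (circles) and in letter F (triangles), filled where the edgeR adjusted p is under 0.05; Zg16 is left out where organoid AKP, which has no tag of it, is compared. In organoid AKP against control Fcgbp and Foxa3 are filled and on 1 side of 0 in all 3 fits, while Agr2 and Creb3l1 lie there on opposite sides of 0 in the 2 letters.

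The organoids from mouse tumours differed from organoid AKP by higher Foxa3, Creb3l1, Spink4 and Zg16. In mean CPM the first of these went from 12.5 ± 4.32 in organoid AKP to 82 ± 25.6 in in vivo AKP, Creb3l1 from 3.03 ± 3.16 to 23 ± 8.64 and Spink4 from 1.52 ± 1.98 to 9.17 ± 2.04 (n = 6 each). These 4 of the 9 genes tested rose and none fell, where 17.4% of all genes tested rose and 17% fell. With limma-voom Agr2 (1.51, adjusted p = 0.00077) and Tff3 (2.20, adjusted p = 0.04) were called higher too. With the letter as a term in edgeR Agr2 was called as well (0.96, adjusted p = 0.039). The share of all genes called in these 2 settings is not given here. Organoid AKP serves in this comparison, in the one with control and in those of the mini-colon lines, so the values of these comparisons share its libraries.

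Foxa3 ranged from 53.7 to 122 CPM in in vivo AKP with a median of 79.6 CPM, above every organoid AKP library. The difference was 2.76 ± 0.20 on the log2 scale (adjusted p = 3.2e-13), and it was called within letter E at 1.98 (adjusted p = 2.3e-12) and within letter F at 3.49 (adjusted p = 6.3e-24). Creb3l1 ranged from 13.8 to 35.6 CPM in in vivo AKP with a median of 21.7 CPM, again above every organoid AKP library. Its difference of 3.13 ± 0.41 (adjusted p = 2.9e-07) was 1.63 within E and 5.17 within F. Spink4 ran from 6.8 to 11.9 CPM with a median of 8.63 CPM in in vivo AKP and from 0 to 5.2 CPM in organoid AKP with a median of 0.94 CPM. The ranges did not meet, and the difference was 2.93 ± 0.51 (adjusted p = 2.4e-05), 1.75 within E and 6.12 within F. The organoid AKP libraries of letter F held 1, 0 and 1 tags of Spink4.

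Zg16 was found at a trace. In vivo AKP held 14 tags of it, at 0.356, 0.384 and 0 CPM in the libraries of letter E and 0.737, 0.8 and 0.654 CPM in those of letter F. Against the floor of 3 counts over the 6 organoid AKP libraries this was at least 4.42-fold higher (adjusted p = 0.0091). Within letter E alone the call was lost (adjusted p = 0.2), and within letter F alone it held (adjusted p = 0.003).

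The other products depended on the letter. Agr2 in in vivo AKP was at 14.2, 11.1 and 16.1 CPM in letter E and at 24.6, 25.6 and 22.9 CPM in letter F. Over all libraries its log2 fold change against organoid AKP was 0.80 ± 0.37 (adjusted p = 0.098), against a fall of -0.55 within E (adjusted p = 0.032) and a rise of 2.94 within F (adjusted p = 9.9e-16). Without organoid AKP replicate 1, 2 or 3 the pooled value passed the test, at 1.2, 1.06 and 1.02 (adjusted p = 0.011, 0.032 and 0.047). Muc2 in in vivo AKP was at 0.712, 0.768 and 1.53 CPM in E and at 4.12, 2 and 6.11 CPM in F. It rose by 3.66 against organoid AKP within F (adjusted p = 2.5e-07), and had a log2 fold change of -1.37 within E (adjusted p = 0.13) and of 1.02 over all libraries (adjusted p = 0.23). Tff3 in in vivo AKP stayed within 1.92 to 3.84 CPM in all 6 libraries. It was 4.43 higher on the log2 scale than organoid AKP within F (adjusted p = 5.2e-05), where 2 of the 3 organoid AKP libraries had no tag, and had -0.82 within E (adjusted p = 0.5). Fcgbp averaged 9.1 ± 2.41 CPM in in vivo AKP, Atoh1 averaged 0.686 ± 0.164 CPM, and neither was called over all libraries (adjusted p = 0.12 and 0.87), although Fcgbp was called without organoid AKP replicate 2 (0.66, adjusted p = 0.036). Within F alone 8 of the 9 genes tested were called, all higher, where 50.3% of all genes were called in either direction. Within E alone 4 were called, Spink4, Creb3l1 and Foxa3 higher and Agr2 lower, where 27.8% of all genes were called.

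Set against the non-induced control, in vivo AKP was lower in 3 of the 4 genes that fell in organoid AKP. Fcgbp, Zg16 and Tff3 were lower by -6.08 ± 0.22, -3.95 ± 0.50 and -2.46 ± 0.62 on the log2 scale (adjusted p = 1.1e-21, 2e-07 and 0.00084), 3 of 9 tested where 33.3% of all genes fell. Foxa3, Spink4, Creb3l1 and Agr2 were higher by 8.18 ± 0.34, 4.28 ± 0.59, 2.78 ± 0.39 and 1.77 ± 0.40 (adjusted p = 1.3e-20, 1.2e-07, 1.8e-07 and 0.00026), 4 of 9 where 38.9% of all genes rose. For each of these 7 genes the libraries of the lines did not overlap, and each was called in the same direction within either letter. The share of all genes that did the same is not given here, so this is not shown to be particular to these genes. Muc2 was not called over all libraries (log2 fold change -0.55, adjusted p = 0.38), and was lower within E (-2.52, adjusted p = 0.00036) and higher within F (0.85, adjusted p = 0.041).

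Markers of other cells also differed between in vivo and organoid AKP. The 11 enteroendocrine markers summed to between 4.8 and 29.6 CPM in in vivo AKP and to between 0.518 and 2.96 CPM in organoid AKP, with Neurod1, Pyy, Cck and Sst at 0 in the latter. The 9 fibroblast and muscle markers summed to between 38.6 and 275.5 CPM in in vivo AKP and to between 5.1 and 22.6 CPM in organoid AKP, while the fibroblast genes Dcn and Lum, the fibrillar collagen gene Col3a1 and the muscle myosin gene Myh11 were at 0 in in vivo AKP. Of the mean sum of 145 CPM in in vivo AKP, 144.5 CPM was Vim. The 9 tuft markers summed to between 194 and 598 CPM in in vivo AKP and to between 195 and 344 CPM in organoid AKP, so these ranges overlapped. Other lists were lower in in vivo AKP. The 14 colonocyte markers summed there to between 130.7 and 247.5 CPM, against 263 to 418 CPM in organoid AKP. The 6 Paneth markers summed to between 225.9 and 292.4 CPM, against 308.7 to 417.5 CPM. The part of all these markers in the levels of the goblet cell genes was not tested.

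Among the mini-colon lines, #v stood apart. Foxa3 was at 36.4, 33.6 and 35.6 CPM in #v, and Creb3l1 at 13.5, 8.37 and 16.7 CPM. Tff3 was at 9.73, 8.52 and 18 CPM in that line and Atoh1 at 3.15, 2.17 and 2.86 CPM. These 4 genes were higher in #v than in organoid AKP, and none of the 9 tested was lower, where 5.11% of all genes rose and 5.48% fell. Their log2 fold changes over all 6 organoid AKP libraries were 1.54 ± 0.23 for Foxa3 (adjusted p = 1.7e-05), 2.31 ± 0.47 for Creb3l1 (adjusted p = 0.0011), 2.13 ± 0.61 for Atoh1 (adjusted p = 0.019) and 2.41 ± 0.74 for Tff3 (adjusted p = 0.033). No organoid AKP library reached the level of #v in Foxa3 and Atoh1, while 1 or more did so in Tff3 and Creb3l1.

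Against the 3 organoid AKP libraries of its own letter, F, #v had 7 genes higher and none lower, where 28.2% of all genes were called in either direction. Tff3 rose by 6.59 (adjusted p = 3.2e-10), Spink4 by 4.75 (adjusted p = 3.2e-07), Creb3l1 by 3.96 (adjusted p = 4e-13), Atoh1 by 2.96 (adjusted p = 0.00017), Agr2 by 2.83 (adjusted p = 1e-14), Muc2 by 2.66 (adjusted p = 0.0006) and Foxa3 by 1.91 (adjusted p = 2.2e-13). Those organoid AKP libraries held 0, 2 and 0 tags of Tff3 and 1, 0 and 1 of Spink4. They held 2, 1 and 3 tags of Muc2 and 5, 0 and 1 of Atoh1. The sizes of these changes thus rest on values near the floor. Agr2 was at 18.9, 20 and 27.9 CPM in #v and at 2.31 to 3.80 CPM in the organoid AKP libraries of letter F, so these did not overlap. The organoid AKP libraries of letter E, at 17.2 to 24.8 CPM, covered the lower part of the range of #v. The mucus protein Fcgbp was level, at 6.87, 4.34 and 7.02 CPM in #v, with a log2 fold change of 0.11 within F (adjusted p = 0.83). Zg16 had 4 tags in #v, in 2 of its 3 libraries.

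The call on Tff3 over both letters was lost without any 1 of the 3 libraries of #v or organoid AKP replicates 4, 5 and 6, and that on Atoh1 without #v replicate 1 or replicate 3 (adjusted p up to 0.22 and 0.09), while Creb3l1 and Foxa3 were called each time. Tff3 was also not called with no filter on low counts, with DESeq2 and with the 2 lines alone (adjusted p from 0.058 to 0.18). Spink4 was called without organoid AKP replicate 2 (2.51, adjusted p = 0.0047) and Agr2 without organoid AKP replicate 1 (1.43, adjusted p = 0.024). Both were also called with limma-voom (2.75 and 1.84, adjusted p = 0.006 and 0.0011) and with the letter as a term in edgeR (2.02 and 1.45, adjusted p = 0.015 and 0.036). In #v the 9 fibroblast and muscle markers summed to between 40.5 and 118 CPM, with Col1a2, Dcn and Lum at 0, against 5.1 to 22.6 CPM in organoid AKP. Nearly all of the sum was the intermediate filament gene Vim, the 1 gene of this list that was tested, which averaged 66.5 CPM in #v and 11.7 CPM in organoid AKP (2.46 ± 0.58, adjusted p = 0.0059). The colonocyte markers Krt20 and Cdhr5, the enteroendocrine marker Sct and the Paneth marker Mmp7 were also higher in #v, by 1.97, 1.56, 2.87 and 1.44. The sums of their lists did not all follow. The 6 Paneth markers summed to between 202 and 260 CPM in #v, below the 308.7 to 417.5 CPM of organoid AKP. The 11 enteroendocrine markers summed to between 1.085 and 1.904 CPM in #v, within the 0.518 to 2.96 CPM of organoid AKP. The 14 colonocyte markers summed to between 373.9 and 439.5 CPM in #v and 263 and 418 CPM in organoid AKP. The part of these differences in the result was not tested.

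Line #iv, of the same letter as #v, stood at the low end in most products. Agr2 was at 4.5, 4.65 and 6.01 CPM, Creb3l1 at 0.843, 1.55 and 1.31 CPM and Tff3 at 0, 0.931 and 0.522 CPM, each below all 3 libraries of #v. Fcgbp, at 0.281, 1.55 and 2.87 CPM, was below every organoid AKP library and was the single gene of the 9 called in #iv against organoid AKP, where 2.35% of all genes fell and 2.54% rose. Its log2 fold change was -2.03 ± 0.45 (adjusted p = 0.0049), and -1.79 within F (adjusted p = 0.019). Without #iv replicate 1 the pooled call was lost (adjusted p = 0.074). Within F, Spink4 and Foxa3 were also called, higher by 3.24 and 0.71 (adjusted p = 0.013 and 0.0072), making 3 of 9 where 13.2% of all genes were called. Spink4 was at 1.12, 0.31 and 2.09 CPM in #iv, and Foxa3 at 17.4, 14.3 and 14.4 CPM. The organoid AKP libraries of letter F held 1, 0 and 1 tags of Spink4.

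The 3 lines of letter E differed little from organoid AKP over all libraries. In #i none of the 9 genes passed the test, where 3.1% of all genes rose and 4.05% fell, and none of the 9 had an unadjusted p under 0.05. In #iii none passed either, where 7.44% rose and 8.78% fell, and Creb3l1 (unadjusted p = 0.024) and Fcgbp (unadjusted p = 0.048) had an unadjusted p under 0.05. DESeq2 called none in either line, and limma-voom none in #i and 1 in #iii. In #ii Fcgbp was lower, at 1.15, 5.26 and 2.62 CPM, by -1.13 ± 0.37 (adjusted p = 0.024), where 12.7% of all genes fell and 11.9% rose. This call was lost without organoid AKP replicate 5 or #ii replicates 1 or 3 (adjusted p up to 0.14), with limma-voom and with the 2 lines alone. Spink4 in #ii was called without organoid AKP replicate 4, 5 or 6 (-3.84, -3.94 and -3.85, adjusted p = 0.035, 0.02 and 0.033).

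Within letter E, where organoid AKP is at its high levels of Agr2, Spink4 and Creb3l1, the genes called in these lines were all lower. In #i, Spink4 was lower by -1.97 and Foxa3 by -0.71 (adjusted p = 0.045 for both), 2 of 9 where 8% of all genes were called. In #ii, Spink4 (-4.77, adjusted p = 6.7e-05), Fcgbp (-1.44, adjusted p = 0.007), Agr2 (-1.38, adjusted p = 7.4e-06) and Foxa3 (-0.65, adjusted p = 0.022) were lower, 4 of 9 where 23.7% were called. Spink4 in #ii rested on 1 tag in 3 libraries against 30 tags in the 6 of organoid AKP, a ratio of 0.0704 over both letters with an exact counting interval of 0.00173 to 0.424. In #iii, Spink4 was lower by -2.26 (adjusted p = 0.0091), 1 of 9 where 16.3% were called, a share near that of all genes. Agr2 in letter E was at 12, 16.6 and 15.7 CPM in #i, at 6.03, 9.2 and 8.19 CPM in #ii and at 11.6, 17.9 and 13.3 CPM in #iii, against 17.2 to 24.8 CPM in organoid AKP. The libraries of #i and #ii lay below all 3 organoid AKP libraries of letter E, and the difference was called in #ii and not in #i (adjusted p = 0.16).

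**Figure D3:**
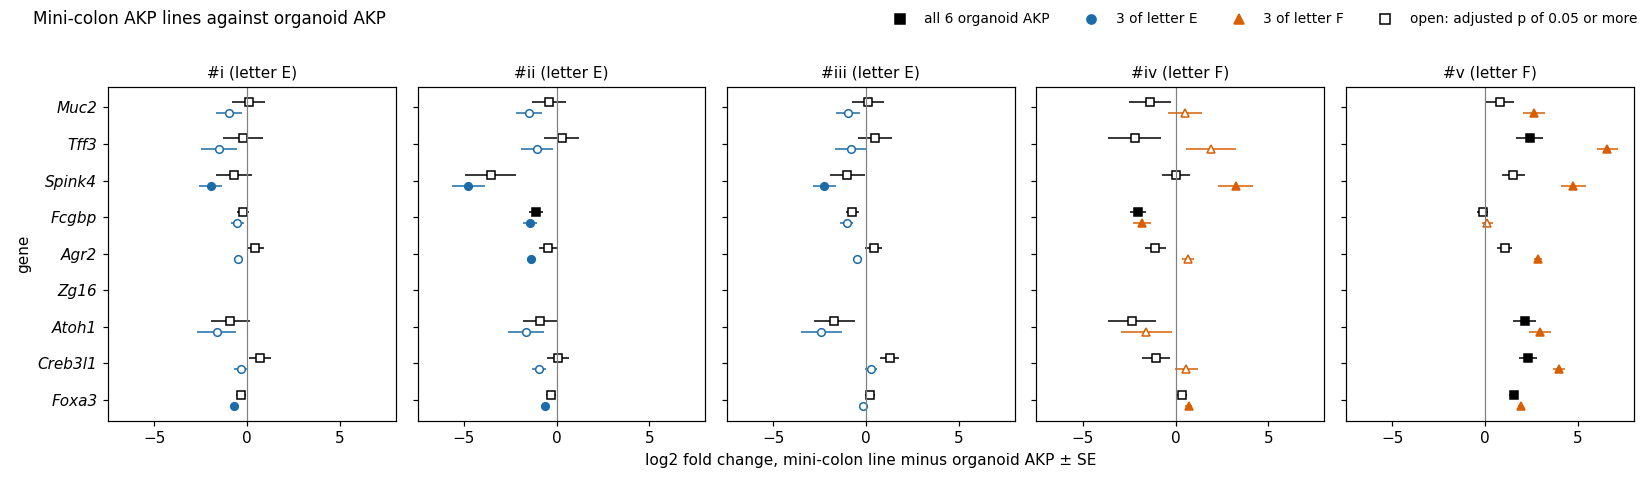
Log2 fold change (x axis, bars show ± SE) of the tested goblet cell genes (y axis) in each mini-colon AKP line against all 6 organoid AKP libraries (squares) and against the 3 of the line's own letter (circles for E, triangles for F), filled where the edgeR adjusted p is under 0.05; Zg16, with no tag in organoid AKP, is left out. In #v the 7 filled triangles lie to the right of 0, and in #i, #ii and #iii all filled circles lie to the left of 0.

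The lines named for their crypt- and lumen-enriched origin were compared directly. The study had picked #v and #i by their score in these same data, the highest and the lowest. That score was for a signature of genes that differ between in vivo and organoid AKP. Foxa3 and Creb3l1 differed between those lines here, so a higher level of them in #v may be partly set by that choice. Foxa3 (log2 fold change 1.87 ± 0.30, adjusted p = 4.8e-05), Atoh1 (3.03 ± 0.91, adjusted p = 0.015), Creb3l1 (1.62 ± 0.56, adjusted p = 0.036) and Tff3 (2.65 ± 0.98, adjusted p = 0.048) were higher in #v than in #i, 4 of 9 tested where 12.5% of all genes rose, and none was lower, where 11.9% fell. In #i Foxa3 was at 9.94, 9.63 and 9.19 CPM, below each library of #v. Atoh1 had 3 tags in #i, all in 1 library, against 49 in #v, a ratio of 8.71 with an exact counting interval of 2.81 to 43.7. Spink4 and Agr2 also did not overlap between the lines, with adjusted p = 0.06 and 0.4. The calls on Foxa3 held without any 1 library, whereas Tff3 was lost without each of the 6 in turn (adjusted p up to 0.16), Creb3l1 without 5 of the 6 (adjusted p up to 0.13), namely all but #v replicate 2, and Atoh1 without #i replicate 2 or 3 (adjusted p up to 0.075). Creb3l1 was also lost with the letter as a term (1.26, adjusted p = 0.26) and with no filter on low counts (adjusted p = 0.067). Tff3 was lost with RLE size factors, no filter on low counts and DESeq2 (adjusted p from 0.0502 to 0.084). Spink4 was called with the letter as a term (3.07, adjusted p = 0.019) and with the replicate block (2.23, adjusted p = 0.04). The 3 libraries of #v are of letter F and the 3 of #i of letter E, so line and letter cannot be told apart in these libraries alone.

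Over all 5 mini-colon lines, 7 of the 9 genes differed by an F test in the same edgeR model, where 46.7% of all genes did. Foxa3 (adjusted p = 7.4e-06), Atoh1 (adjusted p = 0.00057) and Creb3l1 (adjusted p = 0.001) led, and Muc2 (adjusted p = 0.46) and Zg16 (adjusted p = 0.32) were not called. Among #i, #ii and #iii alone, all of letter E, Agr2 (adjusted p = 0.0028) and Creb3l1 (adjusted p = 0.029) differed, 2 of 9 where 25.8% of all genes did. Between #iv and #v alone, of letter F, all but Zg16 differed, 8 of 9 where 19.3% of all genes did.

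The order of the 8 lines in mean CPM was not the same for every gene. For Foxa3 it ran from in vivo AKP (82) over #v (35.2), #iv (15.4), #iii (14), organoid AKP (12.5), #ii (9.63) and #i (9.59) to control (0.24), and only the steps below in vivo AKP, below #v and above control separated neighbours whose libraries did not overlap. For Creb3l1 it ran from in vivo AKP (23) over #v (12.8), #iii (5.97), #i (4.14), organoid AKP (3.03), control (2.9) and #ii (2.65) to #iv (1.23). Neighbours did not overlap from #v to #iii and from #ii to #iv, but lines further along did. Organoid AKP replicate 2 (8.77 CPM) lay above the lowest library of #v (8.37 CPM). The organoid AKP libraries of letter F (0.69 to 0.979 CPM) lay below the highest of #iv (1.55 CPM). For Agr2 the line #v (22.3) stood first, followed by in vivo AKP (19.1), #i (14.8), #iii (14.3), organoid AKP (11.9), #ii (7.81), control (5.69) and #iv (5.05), and no neighbours were free of overlap.

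For Fcgbp control (625.9) stood clear of in vivo AKP (9.1), organoid AKP (6.86), #v (6.08) and #i (5.64), followed by #iii (3.95), #ii (3.01) and #iv (1.57). The neighbours #i and #iii did not overlap either, but #ii replicate 2 (5.26 CPM) lay above the lowest library of #i (4.97 CPM). For Tff3 control (17) and #v (12.1) overlapped with each other and stood first in mean. They were followed by #iii (3.07), in vivo AKP (3), #ii (2.97), organoid AKP (2.91), #i (1.88) and #iv (0.484). No library of #iii, the next line in mean, reached #v. Organoid AKP replicate 2 (9.42 CPM) lay above the lowest library of #v (8.52 CPM), and #ii replicate 2 (8.41 CPM) above control replicate 5 (8.28 CPM). For Spink4 in vivo AKP (9.17) stood clear of #v (3.46), below which no neighbours separated down to #ii (0.0876). For Atoh1 #v (2.73) stood clear of control (0.939), with no separation further down to #iv (0.103), and Zg16 showed a single step, below control (7.95). Muc2, from control (4.06) to #iv (0.458), had no clear step, and Spdef stayed between 0.0844 CPM in control and 0.472 CPM in #iii, on 40 tags in all.

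The spread between the letters within a line was tested in its own right. In organoid AKP 6 of 9 genes were lower in letter F than in E, where 15.4% of all genes were lower and 15% higher. They were Tff3 (log2 fold change -5.38 ± 1.25, adjusted p = 0.002), Spink4 (-4.43 ± 0.78, adjusted p = 1e-05), Muc2 (-2.93 ± 0.74, adjusted p = 0.0017), Agr2 (-2.68 ± 0.24, adjusted p = 2.5e-13), Creb3l1 (-2.66 ± 0.45, adjusted p = 5.7e-06) and Foxa3 (-0.74 ± 0.20, adjusted p = 0.0035), of which Foxa3 was not called without organoid AKP replicate 2 (-0.58, adjusted p = 0.053). In in vivo AKP 4 were higher in F and none lower, where 25.5% of all genes were higher and 21.7% lower. These were Muc2 (2.08 ± 0.53, adjusted p = 0.00098), Creb3l1 (0.86 ± 0.20, adjusted p = 0.00028), Agr2 (0.81 ± 0.18, adjusted p = 0.00016) and Foxa3 (0.75 ± 0.13, adjusted p = 2.7e-06). In control Muc2 (-1.30 ± 0.46, adjusted p = 0.033) and Zg16 (-1.08 ± 0.34, adjusted p = 0.017) were lower in F and Creb3l1 (1.68 ± 0.48, adjusted p = 0.0074) higher, where 8.51% of all genes were lower (1158) and 13.6% higher (1856). The call on Muc2 was lost without any 1 library of control but replicate 3, that on Zg16 without replicate 1 or 5 and that on Creb3l1 without replicate 3 (adjusted p up to 0.18, 0.15 and 0.056). With RLE size factors this split over all genes was 1525 lower and 1421 higher. The 3 lines thus did not share a direction. Tested as a difference between the letters, the change differed for 6 of 9 genes in in vivo AKP against organoid AKP, for 3 of 9 in organoid AKP against control and for 3 of 9 in in vivo AKP against control, where 20.8%, 13.9% and 31.6% of all genes did. What the letter marks was not tested.

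Gene lists around the goblet cell programme give its setting. Their counts stand against the shares of all genes given above, 37.3% higher and 33.6% lower in organoid AKP against control, 17.4% and 17% in in vivo AKP against organoid AKP, 5.11% and 5.48% in #v against organoid AKP and 12.5% and 11.9% in #v against #i. Of the mucins and trefoil peptides other than the 10 genes, 4 of 13 were tested, and 3 fell and 1 rose in organoid AKP against control. In organoid AKP against control the membrane mucin genes Muc13 (-8.53 ± 0.38, adjusted p = 4.1e-18), Muc1 (-3.38 ± 0.34, adjusted p = 7.3e-11) and Muc20 (-1.84 ± 0.42, adjusted p = 0.00025) fell. The stomach trefoil peptide gene Tff1 was the 1 gene of this list called in in vivo AKP against organoid AKP, at 2.78 ± 0.573 against 0.21 ± 0.242 CPM (3.24 ± 0.48, adjusted p = 3.5e-06). Muc13 was higher in #v than in organoid AKP by 1.80 ± 0.49 (adjusted p = 0.015), at 7.81 ± 3.84 against 2.76 ± 3.49 CPM.

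Of 14 tested other products of goblet and deep crypt secretory cells, 7 rose and 4 fell in organoid AKP against control, with a median log2 fold change of 0.54 and shares not far from those of all genes. The uroguanylin-family hormone gene Guca2a fell from 294 ± 27.6 to 0.645 ± 1.16 CPM (-9.21 ± 0.37, adjusted p = 6.9e-20). Pigr, the receptor that carries immunoglobulin A across the epithelium, fell by -6.58 ± 0.30 (adjusted p = 4e-18). Against organoid AKP, 6 rose and 2 fell in in vivo AKP, among them Pigr (2.57 ± 0.31, adjusted p = 8.3e-08) and the cation-chloride cotransporter-family gene Slc12a8 (3.68 ± 0.46, adjusted p = 8.6e-08). In #v 3 rose and 2 fell against organoid AKP. Pigr was higher by 2.55 ± 0.34 (adjusted p = 5.3e-06), and Fcgbpl1, a relative of Fcgbp, and Bcas1 were lower by -1.75 ± 0.37 and -1.33 ± 0.29 (adjusted p = 0.0015 and 0.0017). The median log2 fold change of all genes tested lay between -0.028 and 0.056 in these comparisons and those of the lists that follow.

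Of 21 tested genes of mucin O-glycosylation, which build the sugar chains of mucins, 16 fell and 4 rose in organoid AKP against control, with a median of -1.60. Gcnt3 (-2.19 ± 0.08, adjusted p = 4.7e-22) and Gcnt1 (-2.88 ± 0.12, adjusted p = 1.7e-20), which branch the chain, and the sialyltransferase gene St3gal4 (-3.84 ± 0.16, adjusted p = 3.9e-21) had the smallest p. In in vivo AKP against organoid AKP 4 rose and 7 fell, with Galnt4, which starts the chain, higher by 1.47 ± 0.13 (adjusted p = 3.2e-11) and Gcnt1 lower by -1.61 ± 0.13 (adjusted p = 3.9e-12). In #v Galnt4 was higher than in organoid AKP by 1.06 ± 0.15 (adjusted p = 7.1e-06), 1 of 5 that rose while 2 fell.

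Of 30 tested genes of secretory protein folding and the unfolded protein response, 9 rose and none fell in in vivo AKP against organoid AKP. The disulfide isomerase gene Pdia5 rose from 13 ± 2.55 to 58 ± 19.3 CPM (2.18 ± 0.18, adjusted p = 5.5e-12), and Creb3l2, a relative of Creb3l1, by 0.87 ± 0.17 (adjusted p = 0.00015). In #v against #i 15 rose and none fell, with Creb3l2 higher by 1.58 ± 0.27 (adjusted p = 0.00011) and the chaperone gene Hsp90b1 by 1.11 ± 0.29 (adjusted p = 0.0068). In #v against organoid AKP 1 rose and 1 fell, and the median of this list was 0.19. In #ii against organoid AKP, where 12.7% of all genes fell and 11.9% rose, 14 fell and 1 rose.

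Of 16 tested transcription factors of the secretory lineage and gut, 12 fell and 3 rose in organoid AKP against control. Hnf4a, a factor of enterocyte identity, fell from 280 ± 73.1 to 2.15 ± 1.87 CPM (-7.22 ± 0.34, adjusted p = 1.1e-17), and Sox9, a factor of crypt progenitors, rose from 87 ± 15.5 to 871 ± 62.2 CPM (3.31 ± 0.12, adjusted p = 4.7e-22). In in vivo AKP against organoid AKP 3 rose and 2 fell, with Hnf4a higher by 2.66 ± 0.38 (adjusted p = 1.9e-06). In #v against #i 9 rose and 1 fell, and Foxa1, a relative of Foxa3, was higher by 1.15 ± 0.23 (adjusted p = 0.00083). Of 19 tested genes of the Notch pathway, which holds down Atoh1, 2 rose and 4 fell in in vivo AKP against organoid AKP, shares near those of all genes, and the feedback gene Nrarp fell by -1.10 ± 0.16 (adjusted p = 8.3e-07). In #v against organoid AKP none of the 19 was called by edgeR, with 4 at an unadjusted p under 0.05, and none by limma-voom.

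**Figure D4:**
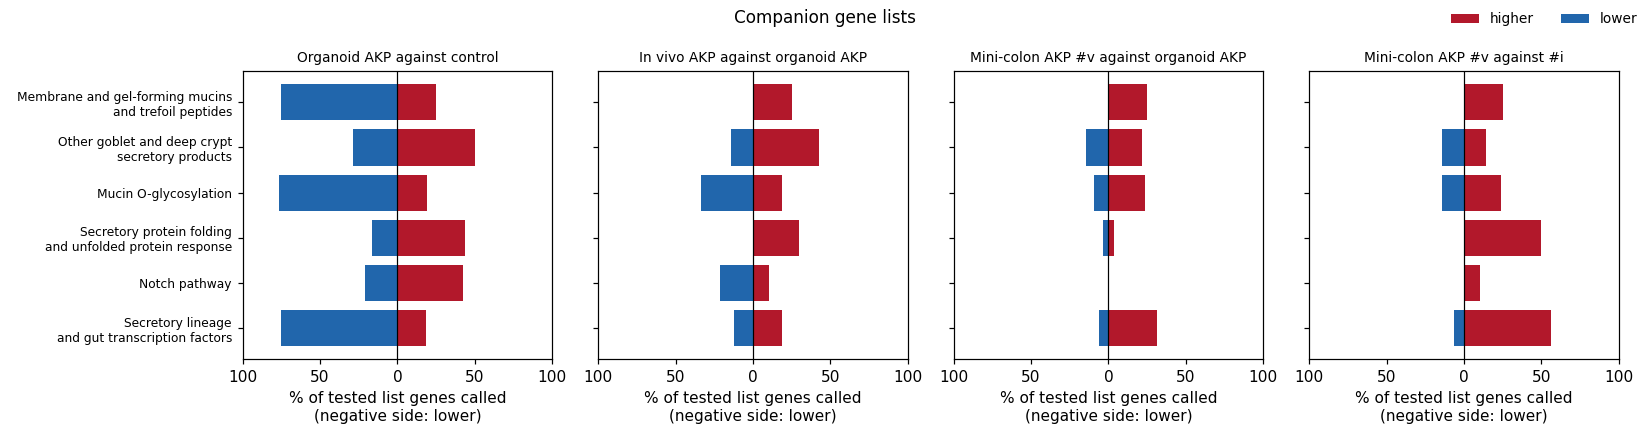
Share of the tested genes of 6 companion lists (y axis) called higher (to the right) or lower (to the left) at an edgeR adjusted p under 0.05, in percent on the x axis, for 4 comparisons of lines. The bars of mucin O-glycosylation and of the transcription factors lie mostly to the left in organoid AKP against control, with 16 of 21 and 12 of 16 genes lower, and the bar of secretory protein folding in #v against #i lies wholly to the right, with 15 of 30 genes higher.

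The genes most like the goblet cell genes in pattern were sought by Pearson's r of log2(CPM + 1) over the 33 libraries among all tested genes, as a description, since the libraries share lines, letters and depth. The top 3 were Smoc2 (r = 0.98), Ifitm3 (0.972) and Fam222a (0.97) for Foxa3. Smoc2, a secreted matrix protein gene of crypt-base cells, went from 0.179 CPM in control over 35.9 in organoid AKP and 134 in #v to 305 in in vivo AKP. For Creb3l1 they were Tox3 (0.884), Slc12a8 (0.861) and Rnf32 (0.851), for Spink4 Dsg1c (0.88), Slc12a8 (0.877) and Myrf (0.874), and for Agr2 Reg4 (0.807), Itln1 (0.799) and Arhgef26 (0.796). Reg4, a lectin gene of deep crypt secretory cells, and Itln1, the intelectin gene, averaged 87.4 and 8.18 CPM in #v and 10.3 and 1.03 CPM in #iv.

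The genes lost from organoid AKP had other neighbours. Fcgbp was closest to Tmt1b (0.974), Ush1c (0.973) and Guca2a (0.971), and Zg16 to Slc34a2 (0.979), Clec2d (0.974) and Cyp2b10 (0.973). Tff3 was closest to Gramd2b (0.845), Baiap2l2 (0.838) and Clca3b (0.802). Among the 10 genes themselves r was 0.945 between Fcgbp and Zg16, 0.806 between Creb3l1 and Spink4, 0.773 between Agr2 and Creb3l1 and -0.732 between Fcgbp and Foxa3.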

How the data were processed

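RNA from starved organoids was turned into QuantSeq libraries, in which each read comes from near the 3′ end of a transcript. Alignment by the authors was to GRCm39 with STAR, and they deposited raw counts per gene, with no normalization; their notes name R 4.1.2, edgeR and limma, and the annotation, counter and strand setting are not given in the sources used here. Symbols and positions came from GENCODE M39 for 31674 of 32285 identifiers, and the 611 without one held 6.85% of counts. Counts were tested in R 4.3.3 with edgeR 4.0.16 (robust quasi-likelihood test, TMM, 1 model of 8 lines, at least 1 CPM in at least 3 libraries, 13606 genes, Benjamini-Hochberg, threshold 0.05), checked on simulated data. Letters within a line were tested in a model with a coefficient for each line and letter. limma 3.58.1 and DESeq2 1.42.0 served as alternatives. Folds against a line without tags used a floor of 3 counts over the line, and intervals are 95% Clopper-Pearson, for counting error only. The genes, lists and tests were chosen with earlier results of these data known. Named were all 10 genes, up to 3 called genes with the smallest p per list and comparison, and the 3 genes most alike in pattern for each gene of at least 5 CPM in a line. No 2 libraries of a line agreed within sampling noise (chi-square per degree of freedom at least 1.66). Of the list genes this rule selects, some are left unnamed, and those given were chosen with their values seen. One allele of the AKP lines and 1 of these genes are not reported here.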

Additional observations from a re-analysis of the deposited data

Results flagged for a closer look

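The levels of the 10 genes were screened for an outlying library in the lines with 6 libraries and more than 1 value, 29 tests in all, of which chance flags about 1 in 20. In organoid AKP, Spink4 in replicate 2, at 5.2 CPM, stood apart from the other 5 libraries, which lay at 0 to 1.89 CPM. Spdef in organoid AKP stood apart in replicate 3, at 0.809 CPM, where the other 5 lay at 0 to 0.178 CPM and the line had 4 tags in all.

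The difference between lines was tested for a difference between the library code letters, F minus E, in edgeR, and 12 results passed an adjusted p of 0.05. For in vivo AKP against organoid AKP the log2 fold change was larger in F for 6 of 9 genes, where 20.8% of all genes were called, by 5.21 for Tff3, 5.02 for Muc2, 4.32 for Spink4, 3.53 for Creb3l1, 3.49 for Agr2 and 1.5 for Foxa3 (adjusted p = 0.021, 3.6e-05, 9.1e-05, 1.7e-07, 1.1e-13 and 3.2e-06). For organoid AKP against control it differed in F by -4.36 for Tff3, -4.34 for Creb3l1 and -2.32 for Agr2 (adjusted p = 0.047, 3.2e-06 and 8.9e-06), 3 of 9 where 13.9% of all genes were called. For in vivo AKP against control it differed by 3.39 for Muc2, 2.52 for Zg16 and 1.17 for Agr2 (adjusted p = 0.00015, 0.041 and 0.0057), 3 of 9 where 31.6% of all genes were called. These tests were added after the data were seen, and what the letter marks was not tested.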

How the results depend on the processing

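Every count below is of goblet cell genes called among those tested, with the value over all libraries in edgeR in brackets. Apart from the shares within a letter given above, shares of all genes are not set beside these counts. The counts show how calls moved and nothing particular to these genes. Of the recomputed counts 178 stayed within 1.5 times the reported one and 31 did not. Within letter F alone it was 8 (4) in in vivo AKP against organoid AKP, 3 (1) in #iv and 7 (4) in #v. Within letter E alone it was 2 (0) in #i, 4 (1) in #ii, 1 (0) in #iii and 2 (7) among the mini-colon lines, of which E holds fewer. In #ii (1) it was 2 with a filter at 5 CPM, with DESeq2 and with the letter as a term, and 0 with limma-voom and with the 2 lines alone. With limma-voom it was 1 (0) in #iii and 5 (3) for letter F against E in control, and with no filter on low counts 2 (4) in #v against #i. Leaving out a library gave 0 to 2 in #ii, 0 to 1 in #iii (1 without organoid AKP replicate 2), 0 to 1 in #iv (0 without its replicate 1), 2 to 5 in #v against organoid AKP (2 without #v replicate 1 or 3), 1 to 3 in #v against #i and 1 to 3 for the letters in control (1 without replicate 1 or 5).

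Among genes called in a comparison over all libraries or within a letter, the log2 fold change turned sign in the following cases. In vivo AKP against organoid AKP within E gave Muc2 -1.37, Tff3 -0.82 and Agr2 -0.55. Organoid AKP against control gave Spink4 -1.40 and Agr2 -0.71 within F and Creb3l1 1.90 within E, and in vivo AKP against control gave Muc2 0.85 within F. With limma-voom Agr2 was 0.33 in #ii, and Spink4 was 0.43 in #i and 0.062 in #iii. Spink4 in #iv was -0.22 with DESeq2 and -0.34 with the replicate block. Leaving out a library gave Spink4 -1.83 to 0.26 in #i and -0.68 to 0.99 in #iv. Genes called in neither also turned sign within a letter, such as Tff3 in #iv (-2.21 over both letters and 1.91 within F). For none of these changes was the cause tested.

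With the replicate number as a block (replicate block) 4 genes were called in in vivo AKP against organoid AKP, 5 in organoid AKP against control, 7 in in vivo AKP against control, 0 in #i, 2 in #ii, 0 in #iii, 1 in #iv, 4 in #v, 5 in #v against #i and 7 among the mini-colon lines. The share of all genes called with this block is not given here. The numbers were not taken as pairs. Correlations of same-numbered libraries ran from 0.0763 to 0.431 for in vivo AKP with organoid AKP, from 0.0914 to 0.237 for organoid AKP with control and from -0.124 to 0.293 for in vivo AKP with control, and 4, 3 and 5 of 12 libraries correlated best with their own number.

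Depth limits the low genes. Spdef, with 40 tags in all, could not be tested, and Atoh1, Spink4 and Zg16 rest on few tags in most lines. A difference in them that was not called is thus not shown to be absent. Calls also differed with the letter. Spink4 in #v against organoid AKP had an edgeR adjusted p = 0.12 over all libraries and 3.2e-07 within F.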

Other observations

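Genes outside the goblet cell list but close to some of its members in pattern reached far higher levels in the organoids from mouse tumours. Ifitm3, an interferon-induced transmembrane protein gene, averaged 0.746 CPM in control, 253 CPM in organoid AKP, 373 CPM in #v and 2123 CPM in in vivo AKP. Myrf, a membrane-bound transcription factor gene, averaged 0.288 CPM in organoid AKP, 2.23 CPM in #v and 13.5 CPM in in vivo AKP. Clca1, a mucus protein gene of goblet cells, averaged 0.505 ± 0.356 CPM in in vivo AKP, 14.7 ± 7.57 CPM in control and 0.135 ± 0.33 CPM in organoid AKP (n = 6 each), and in vivo AKP against organoid AKP was not called (log2 fold change 1.97, edgeR adjusted p = 0.15).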
